A study of Homo sapiens with 3 samples.

Results

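The imprinted genes described here are 36 human genes that are known to be expressed, in some or all tissues, mainly from the copy inherited from 1 parent. They were chosen by name, through the current or older symbols that the array's annotation pairs with its probes. Of the 36 genes, 35 had a named probe, out of 16225 named genes on the array, and they were read by 52 of its 47293 probes; H19, the maternally expressed long non-coding RNA beside IGF2, had no named probe here and was not analysed. By the allele reported as expressed where a gene is imprinted, 17 of the measured genes are paternal and 16 are maternal. The other 2 (GNAS and GRB10) switch allele with the isoform or tissue. Which allele was expressed in these lines was not measured. The samples were the human embryonic stem cell lines H9, BG03 and ES01, which the labels place in 1 group and for which they name no genotype or drug treatment. The study set human cells beside mouse ES cells and EpiSCs (stem cells of the epiblast), which were not analysed here. The 3 human lines were grown on irradiated mouse embryonic fibroblasts in DMEM/F12 with 20% KSR (knockout serum replacement) and FGF2. TRIzol-extracted total RNA, carrying Cy3, was read on Illumina bead arrays for the whole genome. With 1 array per line, no difference between lines has a replicate check and no test between lines was possible; a spread between lines therefore combines what the lines, the cultures and the arrays contribute.

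Imprinting is set in the germ line, where DNA methylation is placed on control regions in either the egg or the sperm and is then kept through the cell divisions of the embryo. The marked control region silences or frees several neighbouring genes at a time, so most imprinted genes lie in clusters. Many paternally expressed genes, such as IGF2, promote growth of the fetus, and several maternally expressed ones, such as CDKN1C, IGF2R and PHLDA2, restrain it. Human embryonic stem cells have passed through early development and culture with these marks in place, and cultured lines are known to lose some of them. For several of the maternal genes (PPP1R9A, ASCL2, TFPI2, SLC22A18, OSBPL5 and TSPAN32 among them) imprinting is described mainly in placenta or in particular tissues. The arrays measured total RNA and do not show from which allele it came.

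The promoters of genes in such clusters are often rich in CG dinucleotides, where DNA can be methylated. The stretches of 150 bases just before a transcription start are shown for 5 genes: SNRPN and MEST, whose promoters lie in or beside control regions methylated on the maternal copy, and SLC22A18, TFPI2 and L3MBTL1, which differed most between lines among the genes with an entry in the promoter table. They come from RefSeq (GRCh38.p14), each at 1 annotated start of its gene, are written 5′ to 3′ on the gene's strand, and have each CG in capitals.
SNRPN, chr15:24954837-24954986, plus strand: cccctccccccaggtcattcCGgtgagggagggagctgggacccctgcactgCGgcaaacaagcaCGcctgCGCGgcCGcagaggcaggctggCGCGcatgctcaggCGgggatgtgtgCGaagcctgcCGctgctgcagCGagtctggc
MEST, chr7:130491908-130492057, plus strand: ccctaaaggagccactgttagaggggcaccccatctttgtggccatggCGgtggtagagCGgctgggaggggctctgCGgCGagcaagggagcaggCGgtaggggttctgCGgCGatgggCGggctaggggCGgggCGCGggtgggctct
SLC22A18, chr11:2902128-2902277, plus strand: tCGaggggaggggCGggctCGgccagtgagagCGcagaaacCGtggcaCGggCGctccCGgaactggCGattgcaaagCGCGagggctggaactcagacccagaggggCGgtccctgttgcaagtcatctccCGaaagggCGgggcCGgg
TFPI2, chr7:93890754-93890903, minus strand: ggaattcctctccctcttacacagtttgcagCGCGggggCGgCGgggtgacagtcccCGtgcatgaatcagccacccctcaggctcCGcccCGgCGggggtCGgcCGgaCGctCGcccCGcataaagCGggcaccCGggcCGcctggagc
L3MBTL1, chr20:43507547-43507696, plus strand: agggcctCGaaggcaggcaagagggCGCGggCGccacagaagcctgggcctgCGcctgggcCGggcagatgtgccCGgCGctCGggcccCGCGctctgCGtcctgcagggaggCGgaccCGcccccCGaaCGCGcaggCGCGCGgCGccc
The stretches hold 12, 11, 15, 16 and 21 CG dinucleotides, in that order. Of the 36 genes, 23 had an entry in the promoter table, with 50 windows of 300 bases (250 before and 50 after a start, some overlapping). NNAT, PEG10, PEG3, DLK1, PHLDA2, IGF2, CDKN1C, KCNQ1, SGCE, ZIM2, DLX5, ASCL2 and TSPAN32 had none. The median window of these genes held 21 CG dinucleotides, with a range of 1 to 49, against a median of 14 over all 35116 windows. The letters TGCCGC, known as the methylated motif bound by the imprint-keeping protein ZFP57, occurred on either strand (GCGGCA on the other) in 17 of the 50 windows (34%), from 13 genes, and in 16.7% of all windows. The motif itself holds a CG, and these shares were not matched for CG content or for several windows of the same gene. A match is a description of the letters and not evidence of binding, and the arrays hold no methylation data.

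Intensities are background-subtracted bead intensities, given in array units after quantile normalization, which gives the arrays 1 common distribution. A probe was called above background on an array when it passed the 95th percentile of 215 olfactory receptor probes, which was 11.2 units in H9, 12.6 in BG03 and 13.3 in ES01. Each array had between 2089034 and 2102778 beads, with a median of 42 beads per bead type. Of 10 markers of undifferentiated embryonic stem cells, 9 were above background in all 3 lines, with POU5F1 at 269.6, 286.7 and 195.2 units and NANOG at 130.1, 122.6 and 127.2 units in H9, BG03 and ES01; ZFP42 differed 3.15-fold, at 364.1, 779.7 and 247.2 units, and the SOX2 probe was above background in no line. Of 12 markers of fibroblasts and stroma, 5 were above background in every line (sums of 1253, 1314 and 1646 units), while COL3A1 and POSTN were in none. The other lists gave 3 of 9 neural markers (sums of 1484, 1478 and 1786 units), 0 of 8 trophoblast markers (25.1, 31.4 and 17.0 units), 8 of 8 endoderm and liver markers (1355, 1360 and 1347 units) and 4 of 8 mesoderm and muscle markers (1866, 1747 and 3467 units). The markers that differed at least 2-fold between a pair of lines were, beside ZFP42, stromal COL1A1, COL1A2, LUM, DCN and TWIST1, neural PAX6 and DCX, endodermal AFP, TTR, APOA1 and APOA2, and mesodermal HAND1, ACTC1 and TNNI3. The endoderm and liver genes were thus above background in cultures labelled as stem cells. A lower level in such a culture can come from fewer cells of a type or from less RNA per cell, which cannot be told apart here. What RNA from the mouse feeder cells added to any probe was not tested.

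In every line, 17 of the 35 measured imprinted genes (48.6%) passed the threshold, and 59.8% of all 16225 named genes did. Another 4 genes were above background in some lines, and 14 (40.0%) in none, against 32.2% of all named genes. The share of these imprinted genes above background throughout was thus lower than that of genes in general, a gap that was not tested. Of 20 further measured genes reported elsewhere as imprinted, 13 (65%) were above background in every line, a higher share than that of all genes. Of the 17 paternally expressed genes, 9 were above background in every line, 2 in some and 6 in none. Among the 16 maternally expressed genes the counts were 6, 2 and 8. Both GNAS and GRB10 were above background throughout.

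**Figure D1:**
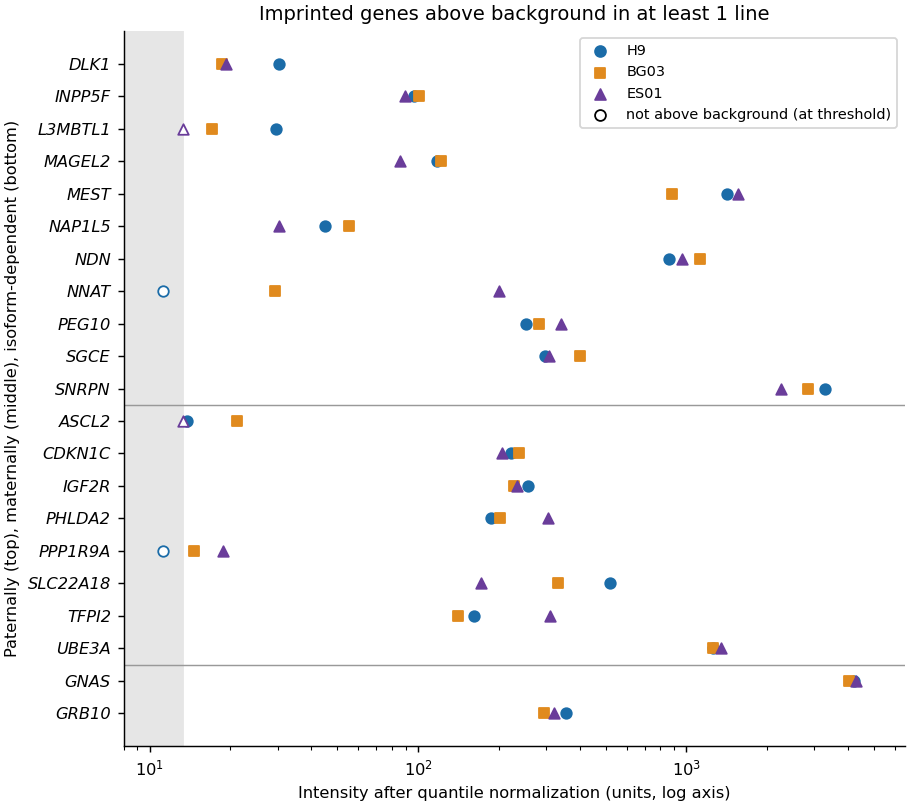
Quantile-normalized intensity (units, log axis) of the 21 imprinted genes above background in at least 1 line, 1 point per line for H9, BG03 and ES01; open symbols are values not above background, drawn at the array's threshold, and the grey band ends at the highest threshold. NNAT spans from the threshold in H9 to 200.8 units in ES01, while the points of GNAS, UBE3A and IGF2R nearly coincide.

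The Prader-Willi and Angelman cluster on chromosome 15 had 4 of its 6 measured genes above background in every line. SNRPN, a component of small nuclear ribonucleoproteins, read 3285 units in H9, 2836 in BG03 and 2258 in ES01 (SD of 0.27 on the log2 scale, n = 3 lines). It has a close relative, SNRPB, so its probe may read both. NDN, a growth suppressor of neurons from the MAGE family, read 865 units in H9, 1119 in BG03 and 967 in ES01 (log2 SD 0.19). MAGEL2, a MAGE family regulator of ubiquitin ligases, read 117.9, 121.5 and 86.0 units (log2 SD 0.28). The 3 paternal genes thus did not share an order of lines: ES01 was lowest for SNRPN and MAGEL2, and H9 was lowest for NDN. UBE3A, the ubiquitin ligase whose maternal copy is lost in Angelman syndrome, read 1257, 1252 and 1342 units, which is within 1.07-fold over the lines. MKRN3, a makorin with a ring finger, and ATP10A, a phospholipid flippase, were above background in no line. SNURF, which shares its transcript with SNRPN, was likewise lowest in ES01, at 2544, 2637 and 1589 units. HERC2, a biallelic ubiquitin ligase gene at the end of the region, read 506, 520 and 261 units, a 1.99-fold range with ES01 lowest.

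The KCNQ1 cluster on chromosome 11, where a maternally methylated control region keeps several genes silent on the paternal copy, had 3 of 7 measured genes above background in every line. CDKN1C, the cyclin-dependent kinase inhibitor p57, read 222.6 units in H9, 238.7 in BG03 and 205.8 in ES01 (log2 SD 0.11). SLC22A18 (current symbol SLC67A1), a transporter related to organic cation carriers, read 520.8, 331.1 and 171.0 units (log2 SD 0.81). PHLDA2, a PH domain protein that restrains growth of the placenta, read 186.8, 201.6 and 306.2 units (log2 SD 0.38). These 3 genes lie next to each other and went different ways: from H9 to ES01 the log2 difference was -1.61 for SLC22A18, 0.71 for PHLDA2 and -0.11 for CDKN1C. ASCL2, a transcription factor of trophoblast, was above background in H9 (13.8 units) and BG03 (21.2 units) and not in ES01 (7.93 units), so that BG03 was at least 1.60-fold higher than ES01. The ASCL2 value in H9 passed the threshold of 11.2 by less than its bead error of 2.76 units. The biallelic genes that follow PHLDA2, NAP1L4 and CARS1, were nearly level, the widest gap of a line from the mean being 0.12 on the log2 scale, for CARS1 in H9. KCNQ1, a potassium channel, TSPAN32, a tetraspanin, and OSBPL5, an oxysterol-binding protein relative, were above background in no line, although OSBPL5 in H9, at 11.1 units, was just under the threshold of 11.2.

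SLC22A18 had the widest range among the imprinted genes above background in every line. H9 was 3.05-fold above ES01 and 1.57-fold above BG03, and BG03 was 1.94-fold above ES01. The bead error at this brightness, that is the standard error of the mean over beads of 1 type, was 14.4, 10.8 and 7.32 units, so all gaps were larger than the technical error within an array. Its SD of 0.81 ranked 245th from the top among 11004 genes above background in some line. Both isoform-specific probes of the gene were above background in no line, so a second probe gives no check. Among the endoderm and liver markers, APOA2 (134.2, 70.0 and 46.9 units) and APOA1 (309.1, 286.6 and 147.2 units) had the same order of lines. AFP (148.1, 321.8 and 383 units), GATA4 (68.7, 77.4 and 83.0 units) and GATA6 (292.4, 314.4 and 366.2 units) had the reverse order. TTR was highest in H9 and lowest in BG03 (81.5, 12.8 and 20.97 units), FOXA2 was lowest in BG03 (221.6, 185.1 and 195.2 units), and so was SOX17 (99.2, 92.4 and 104.9 units). The part of such cells in the result was not tested.

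The PEG10-SGCE cluster on chromosome 7 had 3 of 4 genes above background in every line. PEG10, which encodes retrotransposon-derived gag and pol proteins needed in placenta, read 253.6 units in H9, 281.5 in BG03 and 340.7 in ES01 (log2 SD 0.22). SGCE, epsilon-sarcoglycan, which shares a promoter region with PEG10 on the opposite strand, read 296.6, 400.2 and 307.0 units (log2 SD 0.24). The pair had different orders, with ES01 highest for PEG10 and BG03 highest for SGCE, and both stayed within 1.35-fold. PPP1R9A, the actin-binding protein neurabin, was not above background in H9 (7.10 units) and was near it in BG03 (14.7 units) and ES01 (18.8 units), at least 1.68-fold higher in ES01 than in H9.

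TFPI2, a secreted inhibitor of serine proteases at the edge of that cluster, read 161.7 units in H9, 141.0 in BG03 and 309.3 in ES01 (log2 SD 0.61). ES01 was 2.19-fold above BG03 and 1.91-fold above H9, while H9 and BG03 were within 1.15-fold. The bead error was 6.77, 6.61 and 10.2 units, smaller than each of these gaps. The gene has 1 probe. Its neighbour CALCR, the calcitonin receptor, was also highest in ES01, at 33.7, 43.2 and 99.1 units, and PON3, a paraoxonase on the far side of PPP1R9A, read 15.7, 8.33 and 43.0 units. CASD1, between TFPI2 and SGCE, had the other order, at 116.5, 88.4 and 74.4 units. Of the fibroblast markers, COL1A1 (18.6, 22 and 43.2 units), COL1A2 (310.3, 228.6 and 581.9 units), TWIST1 (9.67, 24.5 and 45.4 units) and PDGFRB (25.7, 35.5 and 50.03 units) were also highest in ES01. THY1, S100A4 and LUM were highest in BG03, DCN, PDGFRA and FAP in H9, and COL3A1 and POSTN were above background in no line. Their part in the TFPI2 result was not tested.

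**Figure D2:**
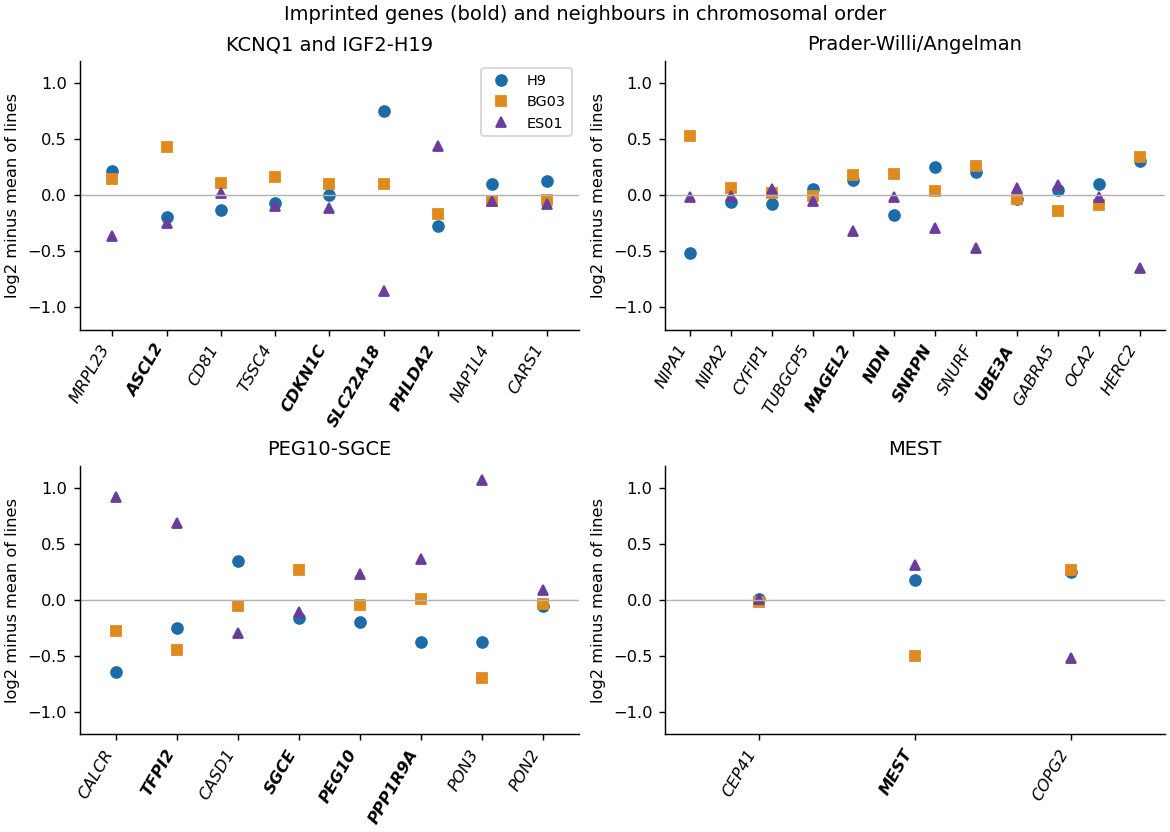
Log2 intensity of each gene in a line minus its mean over the 3 lines, for genes above background in at least 1 line, in chromosomal order within 4 imprinted regions (imprinted genes described here in bold). SLC22A18 and PHLDA2, side by side in the KCNQ1 cluster, have opposite orders of H9 and ES01, and TFPI2 and CALCR both have ES01 on top.

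NNAT, or neuronatin, a small proteolipid of the endoplasmic reticulum that is best known from developing neurons, had the widest spread of the imprinted genes. It read 0.60 units in H9, which is not above background, 29.3 in BG03 and 200.8 in ES01. ES01 was thus 6.86-fold above BG03 and at least 17.9-fold above H9, and BG03 was at least 2.61-fold above H9. The log2 SD of 2.12, with H9 set to its threshold, ranked 7th among the 11004 genes. The bead error was 1.88, 3.46 and 7.97 units. The isoform-specific NNAT probe read 1.07, 4.53 and 5.73 units, above background in no line, so the difference rests on the probe that reads all isoforms. NNAT lies within an intron of BLCAP, and BLCAP read 318, 326 and 343 units, within 1.08-fold. With the 99th percentile as background the log2 difference of ES01 from H9 went from 4.16 to 3.00, and with the mean of the probes to 3.20; under both, BG03 and H9 no longer differed 2-fold. Of the neural markers, PAX6 (3.80, 14.8 and 24.2 units) and NES (70.9, 99.2 and 107.2 units) had the same order of lines as NNAT. STMN2 had the reverse order (20.3, 15.2 and 11.5 units), DCX was highest in BG03 (34.4, 76.3 and 55.4 units), TUBB3 was lowest in BG03 (1348, 1269 and 1575 units), and SOX1, NEUROG1, NEUROG2 and MAP2 were above background in no line. The stromal markers TWIST1, COL1A1 and PDGFRB had the order of NNAT, and the other stromal markers above background in some line had not. COL3A1 and POSTN were above background in no line. The part of other cell types in the NNAT result was not tested.

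MEST, a hydrolase family protein, was the paternal gene of its cluster on chromosome 7 that was above background, at 1414 units in H9, 884 in BG03 and 1553 in ES01 (log2 SD 0.44). BG03 was lowest, with a log2 difference of -0.68 from H9, and ES01 was 1.76-fold above BG03. COPG2, a coat protein gene that overlaps the end of MEST, had another order, at 229.5, 233 and 135 units. CPA4, a carboxypeptidase, and KLF14, a Kruppel-like factor, the maternal genes of the cluster, were above background in no line.

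The remaining paternal genes above background lie apart from one another. DLK1, a Delta-like membrane protein on chromosome 14, read 30.2 units in H9, 18.6 in BG03 and 19.3 in ES01 (log2 SD 0.39), where H9 was 1.62-fold above BG03. NAP1L5, a relative of nucleosome assembly proteins, read 45.1, 55.3 and 30.4 units (log2 SD 0.44), 1.82-fold higher in BG03 than in ES01. It lies within HERC3, which read 24.7, 33.9 and 65.9 units, with ES01 2.67-fold above H9, so that ES01 was the lowest line for NAP1L5 and the highest for HERC3. INPP5F, an inositol phosphatase, read 96.7, 100.8 and 89.8 units (log2 SD 0.08) at its brightest probe, which is isoform-specific. Its probe for all isoforms had another order, at 18.1, 22.3 and 24.3 units, a 1.35-fold range. The INPP5F probes were not matched to an imprinted transcript of the gene.

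L3MBTL1, a chromatin-compacting protein with MBT domains on chromosome 20, read 29.6 units in H9 and 17.1 in BG03 and was not above background in ES01, at 7.53 units. H9 was at least 2.23-fold above ES01 and 1.73-fold above BG03. The bead error was 3.25, 3.17 and 2.5 units. Both of its isoform-specific probes were above background in no line. With the mean of its probes in place of the brightest, the log2 difference of ES01 from H9 was 0.18. All its probes were under the threshold in ES01, so ES01 was set to that threshold, and the positive sign comes from this floor. With a stricter background (the 99th percentile) the difference was -0.46, so the 2-fold difference depends on these choices.

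Of the receptors and signalling genes, IGF2R, which clears IGF2 from the cell surface, read 256.8 units in H9, 228.1 in BG03 and 233.7 in ES01 (log2 SD 0.09). GRB10, an adaptor that restrains insulin and IGF receptor signalling, read 357.0, 295.0 and 320.2 units (log2 SD 0.14). GNAS, the stimulatory G protein alpha subunit, read 4229, 4042 and 4271 units (log2 SD 0.04), within 1.06-fold. These 3 genes were nearly level over the lines. IGF2 itself was above background in no line, at -1.57, -4.07 and -6.80 units, which are values below the subtracted background. The same held for PEG3, a zinc finger protein (1.73, 3.23 and 9.37 units), ZIM2, which shares exons with PEG3, PLAGL1, a zinc finger transcription factor, and DIRAS3, a RAS-related growth suppressor. The maternal genes TP73, of the p53 family, and DLX5, a homeobox factor, were also above background in no line. None of these probes was checked for its ability to read its transcript, so a value under background is not a sign that the RNA was absent.

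Isoform probes added some detail. Of the 52 probes for the 35 genes, 18 passed the threshold on each array, 8 on some and 26 on none, and 10 genes had several probes. Many of the probes that passed it on none are isoform-specific. The same shares over all probes of the array are not given here. For GNAS, the probe for the maternally expressed NESP55 transcript read 32.4 units in H9, 10.6 in BG03 and 34.3 in ES01. H9 was therefore at least 2.57-fold and ES01 at least 2.73-fold above BG03, while the probe for all GNAS isoforms was level. The probe for the paternally expressed XLas transcript was above background in no line (2, 6.07 and 2.3 units). For MEST, an isoform probe was above background in H9 (18.8 units) and ES01 (15.9 units) but not in BG03 (6.27 units), which was also the lowest line at the probe for all isoforms. Another MEST isoform probe went the other way and was above background in BG03 alone (5.97, 15 and 11.9 units), and the last was above background in no line. The value of 15.9 in ES01 and that of 15 in BG03 passed their thresholds (13.3 and 12.6) by less than their bead errors of 2.91 and 3.02 units. The opposite calls of these MEST probes thus rest on values near the threshold. An INPP5F isoform probe was above background in BG03 alone, at 26.8 units against 3.23 in H9 and 9.27 in ES01. These isoform probes were singled out after their values were seen.

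**Figure D3:**
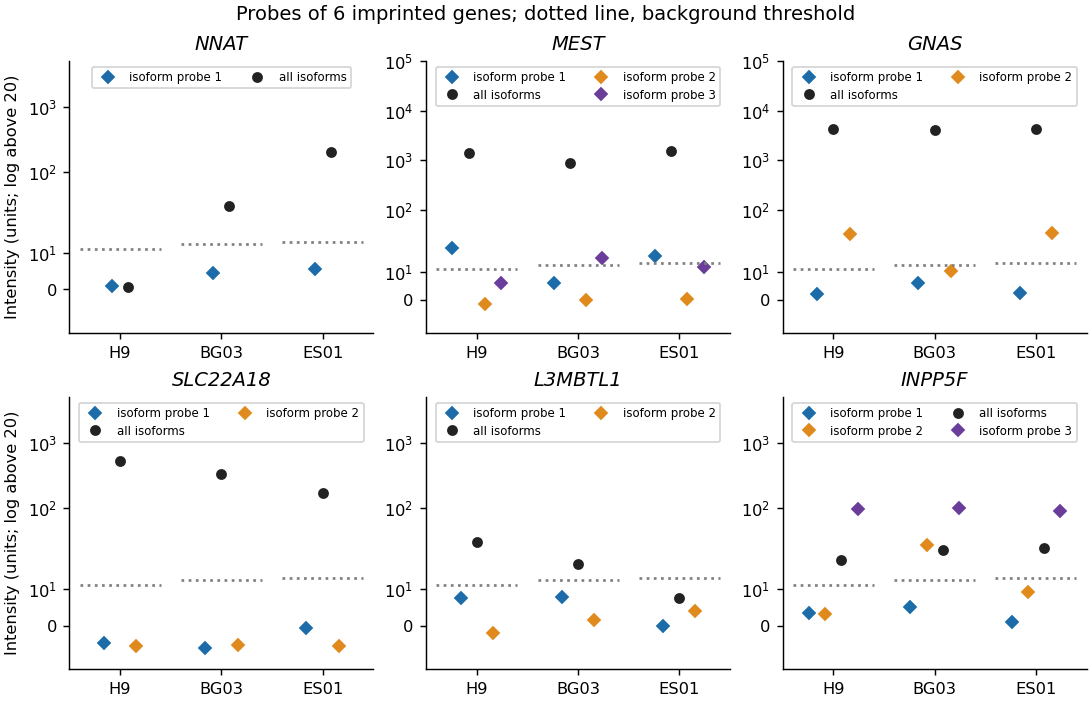
Quantile-normalized intensity (units, log axis above 20 and linear below) of every probe of 6 imprinted genes in H9, BG03 and ES01; circles read all isoforms, diamonds are isoform-specific, and short dotted lines mark each array's threshold. For NNAT, SLC22A18 and L3MBTL1 the isoform probes lie under the threshold in every line, and 1 GNAS isoform probe passes it in H9 and ES01 and not in BG03.

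For differences between lines, values under an array's threshold were set to it, and the 21 imprinted genes above background in at least 1 line were set beside all 11004 such genes. Between BG03 and H9, 1 of the 21 (NNAT) differed at least 2-fold, against 3.24% of all genes. Between ES01 and H9, 3 did so (NNAT, SLC22A18 and L3MBTL1), against 5.14% of all genes. Between ES01 and BG03, 2 did so (NNAT and TFPI2), against 3.75%. Between any pair of lines, 4 of 21 (19.05%) differed at least 2-fold, against 8.29% of all genes; these 4 genes are few and were not tested as a group. The pairs share arrays and are not independent of one another. NNAT accounts for a count in each pair, and SLC22A18 and TFPI2 are the 2 that were above background in every line. The median log2 difference over the 21 genes was 0.04 for BG03 against H9 (0.03 over all genes), -0.05 for ES01 against H9 (0.01 over all) and 0.03 for ES01 against BG03 (-0.01 over all), so the genes did not lean to 1 line.

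**Figure D4:**
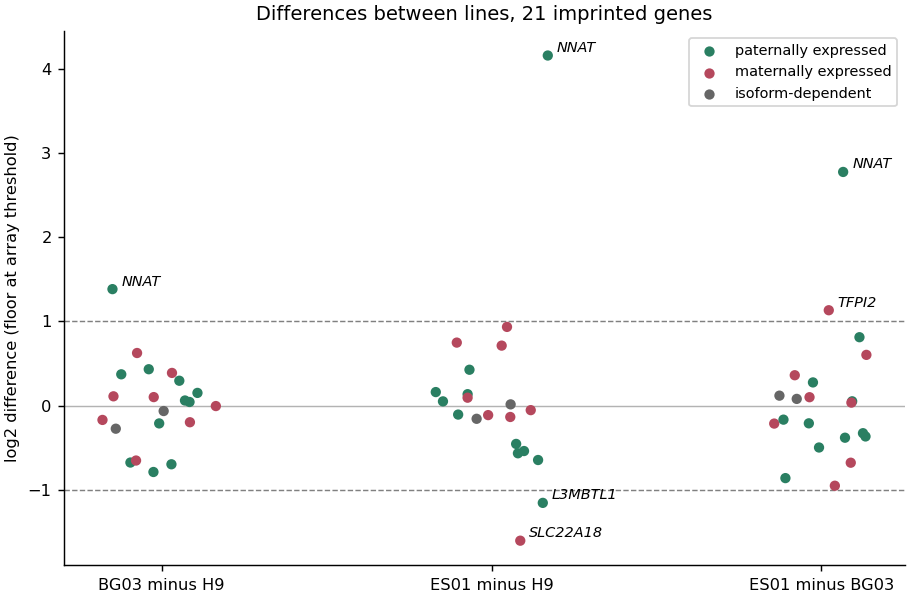
Log2 difference between lines for the 21 imprinted genes above background in at least 1 line, by pair of lines and by expressed allele; dashed lines mark 2-fold. NNAT passes 2-fold in every pair, SLC22A18 and L3MBTL1 in ES01 minus H9, and TFPI2 in ES01 minus BG03.

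The spread over the lines was also given as a log2 SD per gene. The median was 0.28 for the 21 imprinted genes and 0.19 for all 11004 genes. Among genes above background in every line it was 0.24 for 17 imprinted genes and 0.18 for 9695 genes. Of the 21 genes, 14 lay above the median SD of all genes. Only 11 of the 21 stayed within 1.5-fold over the lines, a smaller share than the 74.0% of all genes. These gaps were not tested. The highest line was H9 for 6 genes, BG03 for 7 and ES01 for 8. The same split over all genes is not given here, so these counts describe the imprinted genes alone. For ES01 against BG03, 4 of the 11 paternal genes were higher and 7 lower (median log2 difference -0.21). Of the 8 maternal genes, 5 were higher and 3 lower (median 0.07). Over all 11004 genes, 5399 were higher and 5588 lower. For ES01 against H9 the counts were 5 and 6 for paternal genes, 4 and 4 for maternal genes, and 5700 and 5286 over all genes. For BG03 against H9 they were 7 and 4, 4 and 4, and 5907 and 5072. These counts were not tested.

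**Figure D5:**
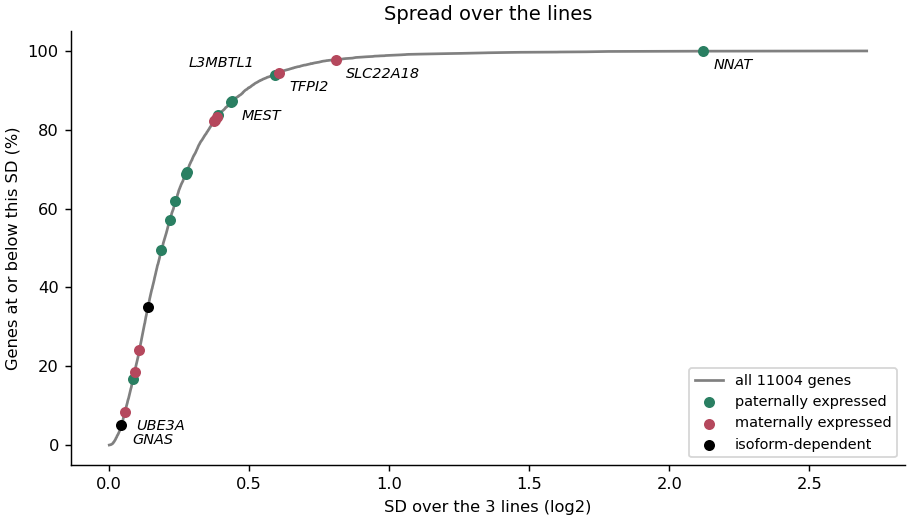
Share of genes (%) at or below a given log2 SD over the 3 lines for all 11004 genes that passed the threshold somewhere (grey line), with the 21 imprinted genes as points on it, coloured by expressed allele. NNAT, at 2.12, SLC22A18, at 0.81, and TFPI2, at 0.61, lie at the upper end, and GNAS and UBE3A at the lower end.

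The genes that lie beside the imprinted ones gave a local comparison. Of 69 listed neighbours, 57 were measured and 33 (57.9%) were above background in every line, close to the 59.8% of all genes. Of the 39 above background in some line, 5 (12.8%) differed at least 2-fold between a pair of lines, against 8.29% of all genes: PON3 (at least 3.42-fold), CALCR (2.94-fold), HERC3 (2.67-fold), MCMBP (2.58-fold, beside INPP5F) and NIPA1 (at least 2.07-fold, beyond MKRN3). MCMBP, a binding partner of the replicative helicase, read 55.6, 87.2 and 143 units.

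Of 29 listed genes known to set, keep or erase imprints, 26 were measured. Among these, 18 (69.2%) were above background in every line, against 59.8% of all genes. DNMT1, the methyltransferase that copies methylation at replication, read 2635 units in H9, 3241 in BG03 and 2544 in ES01. Its guide UHRF1 read 494, 650 and 608 units, and TRIM28, the corepressor recruited to imprinted regions, read 936, 967 and 1115 units. ZFP57, which binds methylated imprinted regions and recruits TRIM28, was above background in no line (8.33, 0.60 and 9.90 units), as were CTCFL, SMCHD1, KDM1B and TET2. Of the 21 genes above background in some line, 2 (9.52%) differed at least 2-fold between lines, near the 8.29% of all genes. DNMT3L, the cofactor that helps place imprints in germ cells, read 16.7, 42.8 and 11.9 units, at least 3.23-fold higher in BG03 than in ES01. DPPA3, which shields DNA methylation in the early embryo, read 26.4, 26.5 and 72.0 units, 2.73-fold higher in ES01 than in H9.

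Of 16 genes of the IGF2 pathway, 12 (75%) were above background in every line, against 59.8% of all genes. Of these 12, 0 differed at least 2-fold, against 8.29% of all genes, a count that is small and was not tested. The RNA-binding proteins IGF2BP2 (1750, 1745 and 1848 units) and IGF2BP3 (1996, 1715 and 1991 units) were level, and IGF1R, the receptor that IGF2 signals through, read 48.6, 63.0 and 75.7 units. Of 22 further genes reported elsewhere as imprinted, 20 were measured and 13 (65%) were above background in every line. Of the 15 above background in some line, 1 (6.67%) differed at least 2-fold, near the 8.29% of all genes. That gene was RBP5, a cellular retinol-binding protein, at 25.7, 44.9 and 16.4 units, 2.74-fold higher in BG03 than in ES01.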

How the data were processed

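Total RNA of 3 human embryonic stem cell lines was measured on 1 Illumina array each, per the labels. The authors' deposited table gives an intensity for each of 47293 probes on a linear scale; 33.8%, 32.8% and 26.3% of the values in H9, BG03 and ES01 are below 0, so a background had been subtracted. The authors' software is not given in the sources used here, nor is any scaling of the arrays to one another. Deposited bead files give an intensity per bead with no link to genes, and served for bead error only.

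Of the probes, 18468 had 1 gene symbol in the platform annotation, 18451 of them matched by gene ID to the RefSeq table; 4 bacterial control probes were left out. Values were quantile-normalized in Python 3.11.15 with numpy 2.4.6 and pandas 2.3.3; this was tested on simulated data. A gene with several probes was read at the probe with the highest mean, and values under an array's threshold were set to it before log2 was taken. Probe names mark probes for a single transcript, an isoform or all isoforms. Coordinates are given for the RefSeq promoter stretches alone, with their own build, since the array files name none; the order of genes along a chromosome is also RefSeq's.

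The members, the lists and the threshold were chosen with earlier results of these data known. By rule, every member above background was given with its value in each line, every member differing at least 2-fold was described with its bound, other probes and bead error, and from the other lists genes differing at least 2-fold were named, at most 8 per list; other named list genes, markers and neighbours were chosen after their values were seen. Alternatives were other scalings, thresholds, background probes, probe rules, floors, genes compared and fold sizes, and each line left out.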

Additional observations from a re-analysis of the deposited data

How the results depend on the processing

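The 17 imprinted genes above background in every line became 16 with the 99th percentile of the background probes, without DLK1, and ranged from 17 to 19 with a line left out: without H9, NNAT and PPP1R9A joined, and without ES01, L3MBTL1 and ASCL2. The counts of genes past 2-fold are small and moved more. For BG03 against H9 the 1 gene became 2 with medians of the probes above background made equal (NNAT and L3MBTL1), and 0 with the 99th percentile, with the mean of a gene's probes, with genes above background in all lines, or at 3-fold. For ES01 against H9 the 3 genes became 4 with the second set of background probes (PPP1R9A joined), 2 with the 99th percentile, the mean of the probes or 3-fold (NNAT and SLC22A18), and 1 with genes above background in all lines (SLC22A18). For ES01 against BG03 the 2 genes became 3 with equal medians (SLC22A18 joined) or the second background set (ASCL2 joined), and 1 with genes above background in all lines (TFPI2) or at 3-fold (NNAT). The log2 difference of L3MBTL1 in ES01 from H9 was -0.46 with the 99th percentile. With the mean of its probes, of which the isoform-specific ones lay under background, it was 0.18. ES01 there stood at its threshold, and the positive sign comes from this floor. Over the alternatives, ES01 against H9 ranged from 3.00 to 4.48 for NNAT and from -1.81 to -1.57 for SLC22A18, and ES01 against BG03 ranged from 1.08 to 1.15 for TFPI2. The median log2 SD of the imprinted genes, 0.28, ranged from 0.19 without ES01 to 0.30 with equal medians of the probes above background. The medians over all genes under those settings are not given here. No paired analysis was possible because the samples form 1 group. Precision is limited by having 1 array for each line, and most of all for dim probes near the threshold.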
